A study of Mus musculus with 6 samples.

Results

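A set of 10 chromatin and Mediator genes linked to congenital heart defects was examined here, *Med13l*, *Chd7*, *Kmt2d*, *Smarca4*, *Hdac7*, *Ep300*, *Crebbp*, *Ehmt1*, *Nsd1* and *Setd5*. They were listed by symbol for their link to heart defects, with earlier results of these data known, and matched to the Ensembl identifiers of the count table. All 10 were found among the 28777 genes listed, and all 10 were among the 28157 genes tested. In the libraries labelled mutant, *Kmt2d* was 47.3% higher, *Med13l* 40.7% higher and *Hdac7* 37.4% higher than in the libraries labelled wildtype. For these 3 genes every library labelled mutant lay above every library labelled wildtype, as it did for 10.7% of all genes tested. The remaining 7 genes differed by between −9.46% (*Chd7*) and 13.4% (*Crebbp*), with overlapping groups. None of the 10 passed the threshold of the test used here, edgeR's quasi-likelihood F test over all genes, at the 3 libraries of each label.

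The 10 proteins act on the packaging of DNA or on the step between transcription factors and RNA polymerase. *Med13l* encodes a subunit of the kinase module of Mediator, the complex that carries signals from bound transcription factors to RNA polymerase II. *Smarca4* and *Chd7* encode motors that use ATP to move nucleosomes, *Kmt2d*, *Ehmt1*, *Nsd1* and *Setd5* encode proteins with the SET domain of histone methyltransferases, *Ep300* and *Crebbp* encode histone acetyltransferases, and *Hdac7* encodes a class IIa histone deacetylase. Damaging variants in several of the human homologs cause syndromes that include heart malformations, such as CHARGE (*CHD7*), Kabuki (*KMT2D*), Rubinstein-Taybi (*CREBBP*, *EP300*), Kleefstra (*EHMT1*) and Sotos (*NSD1*) syndromes.

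The measurements are bulk RNA-Seq counts of the cardiac outflow tract (OFT) in mouse embryos at E13.5. The OFT is the part of the embryonic heart that forms the roots of the aorta and pulmonary artery. By the study's account its valves have not yet been remodelled or elongated at this stage. Of the 6 libraries, 3 carry the genotype label Notch1-het; Nos3- null, meaning 1 working copy of *Notch1* and none of the endothelial nitric oxide synthase gene *Nos3*, and 3 carry the label wildtype. The study asked which genes differ in the OFT of this model of valve and OFT malformations, in which every cell of the embryo, and not one cell type, carries the knockout alleles. By the study's methods the mutants came from *Notch1*+/-; *Nos3*+/- males and *Nos3*+/- females, and the controls were their *Notch1*+/+; *Nos3*+/+ littermates, all of C57/BL6J background. Each library was made from 3 OFTs pooled after genotyping, 18 OFTs in all, so the spread given below is between pools and not between embryos.

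The 2 targeted genes check the labels. *Nos3* had 31.8, 47.2 and 48.1 CPM (counts scaled to a common library total by the TMM method, TMM-scaled CPM) in wildtype replicates 1, 2 and 3, and between 20.4 and 22.1 CPM in the libraries labelled mutant. Its log2 fold change was −0.98, not called by edgeR's quasi-likelihood F test (adjusted p = 0.128) but called by DESeq2's Wald test (adjusted p = 9.4e-06). Under the label of no working copy 21.5 CPM remained on average, against 42.4 CPM. *Notch1* had 74.3, 88.2 and 83.6 CPM under the wildtype label and 155, 161 and 139 CPM under the mutant label, which is opposite to the labelled loss of a copy (log2 fold change 0.89, adjusted p = 0.0313, edgeR's quasi-likelihood F test, Benjamini-Hochberg). The call of *Notch1* held in 10 of 17 alternative settings and was lost after a GC and length correction, with a myocardial covariate and without any 1 library other than wildtype replicate 1, while its log2 fold change stayed between 0.67 and 0.99. Libraries are therefore called by label throughout, and every direction is one of labels. Library totals ranged from 34729103 to 44387490 counts. The titles and the descriptions of wildtype replicates 2 and 3 give opposite library numbers; the titles were followed. Myocardial, endothelial, smooth muscle, mesenchymal and epicardial markers of the OFT were all above 3 counts in at least 1 library, and the 14 myocardial ones summed to between 23072 and 49855 CPM. Of 7 neural crest and glia markers 6 were among the genes tested.

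Promoter sequence is shown for the 3 genes whose groups did not overlap, since these carry the differences described below. The windows hold the 250 bases before the transcription start in the RefSeq annotation of GRCm38.p6, read 5′ to 3′ on the strand of the gene, and capitals mark the GC box, GGGCGG or its reverse complement CCGCCC, a motif known to be bound by Sp factors. The *Med13l* window lies at chr5:118560469-118560718 on the plus strand, the *Kmt2d* window at chr15:98871206-98871455 on the minus strand, and the *Hdac7* window at chr15:97844503-97844752 on the minus strand.
Med13l: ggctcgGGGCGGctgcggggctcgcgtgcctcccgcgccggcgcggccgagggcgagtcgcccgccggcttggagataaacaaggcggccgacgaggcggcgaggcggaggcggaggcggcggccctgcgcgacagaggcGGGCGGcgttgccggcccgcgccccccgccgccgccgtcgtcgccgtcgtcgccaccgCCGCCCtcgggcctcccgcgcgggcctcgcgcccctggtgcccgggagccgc
Kmt2d: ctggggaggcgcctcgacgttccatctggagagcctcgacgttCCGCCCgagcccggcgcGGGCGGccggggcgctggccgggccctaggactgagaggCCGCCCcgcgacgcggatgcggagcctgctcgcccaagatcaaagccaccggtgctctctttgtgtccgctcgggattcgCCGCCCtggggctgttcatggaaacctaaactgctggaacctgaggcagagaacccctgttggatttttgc
Hdac7: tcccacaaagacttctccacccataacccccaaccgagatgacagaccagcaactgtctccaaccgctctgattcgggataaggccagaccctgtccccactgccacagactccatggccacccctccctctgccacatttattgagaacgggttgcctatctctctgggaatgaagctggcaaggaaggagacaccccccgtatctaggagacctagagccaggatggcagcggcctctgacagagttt

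These 3 windows are unlike each other. The *Med13l* window had a GC content of 84% with 51 CpG dinucleotides and 3 GC boxes, and the *Kmt2d* window 67.6% with 26 CpG and 4 GC boxes. The *Hdac7* window shown, the outermost of 4 listed for this gene, had 56.4%, 6 CpG and 0 GC boxes, close to the median of all 32851 promoter windows (52.4% and 6 CpG). Another of the 4 *Hdac7* windows, at chr15:97831496-97831745, had a GC content of 74% and 1 GC box. Of the 8 genes with a window in the table, 6 had a GC box in the window nearest the outermost start, against 32.7% of all windows. The window of *Setd5*, 1 of the 2 genes without a GC box, lies 27570 bases from its annotated start and is counted in all of these tallies. The letters GTGGGAA, the core of sites known for Rbpj, the DNA-binding partner of Notch, were searched on both strands and found in 0 of the 8 windows and in 5.42% of all windows. The E-box CACGTG (6.02% of all windows) and the Ets core CCGGAAG (6.91%) were also found in 0 of the 8. A match here is a match of letters, and the absence of one concerns only these 250 bases.

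The 10 genes lie on 8 chromosomes of mm10, by the GENCODE annotation of that build. *Med13l* (ENSMUSG00000018076) lies on chromosome 5 from 118560679 to 118765438, *Kmt2d* (ENSMUSG00000048154) on chromosome 15 from 98831669 to 98871204 and *Hdac7* (ENSMUSG00000022475) on chromosome 15 from 97792664 to 97844502. *Kmt2d* and *Hdac7* are thus neighbours at 0.987 Mb, while *Ep300* (ENSMUSG00000055024) lies at lower positions of the same chromosome, from 81585351 to 81652077. *Ehmt1* (ENSMUSG00000036893), on chromosome 2 from 24789928 to 24919614, is 1.54 Mb from the targeted gene *Notch1*. *Med13l* shares chromosome 5 with *Nos3* but lies 94.2 Mb from it. The others are *Chd7* (ENSMUSG00000041235) on chromosome 4 from 8690406 to 8867659, *Smarca4* (ENSMUSG00000032187) on chromosome 9 from 21616169 to 21704230, *Crebbp* (ENSMUSG00000022521) on chromosome 16 from 4081328 to 4213997, *Nsd1* (ENSMUSG00000021488) on chromosome 13 from 55209782 to 55318325 and *Setd5* (ENSMUSG00000034269) on chromosome 6 from 113077365 to 113153435. *Hdac7* overlaps the heme transporter gene *Slc48a1* on the opposite strand. That gene had 38.3 CPM and a log2 fold change of −0.29, against 0.46 for *Hdac7*, and the sources used here do not say whether the counting used the strand.

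All 10 genes were well measured. A single gene had between 1295 and 11010 counts in a library, so that counting error was at most 2.78%, and the coefficient of variation between the libraries of one label ran from 1.59% (*Nsd1*, mutant label) to 18.1% (*Med13l*, wildtype label). Compared per kilobase of exon, *Smarca4* was the most abundant in the libraries labelled wildtype, with 30.4 ± 1.19 CPM per kb (SD, n = 3), followed by *Nsd1* (12.8 ± 1.5), *Ehmt1* (10.9 ± 0.263), *Setd5* (10.2 ± 1.25) and *Hdac7* (9.48 ± 0.865). A lower group held *Ep300* (5.46 ± 0.669 CPM per kb), *Crebbp* (3.90 ± 0.487), *Kmt2d* (3.83 ± 0.286), *Chd7* (3.78 ± 0.433) and *Med13l* (2.99 ± 0.540). Neighbours in this order whose wildtype libraries overlapped were *Ehmt1* and *Setd5*, *Setd5* and *Hdac7*, *Crebbp* and *Kmt2d*, *Kmt2d* and *Chd7*, and *Chd7* and *Med13l*. Over all 6 libraries *Smarca4* stood above 93.2% of 17138 protein-coding genes and *Med13l* above 51.6%. The order depends on the length used. The mean of *Setd5* over all 6 libraries was 10.7 CPM per kb of all its exons and 29.1 CPM per kb of its longest transcript. In the lower group, *Med13l* has 15.4 kb of exons but a longest transcript of 9.30 kb, against 19.9 and 19.8 kb for *Kmt2d*. Per kb of longest transcript *Med13l* therefore stands above *Kmt2d*.

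**Figure D1:**
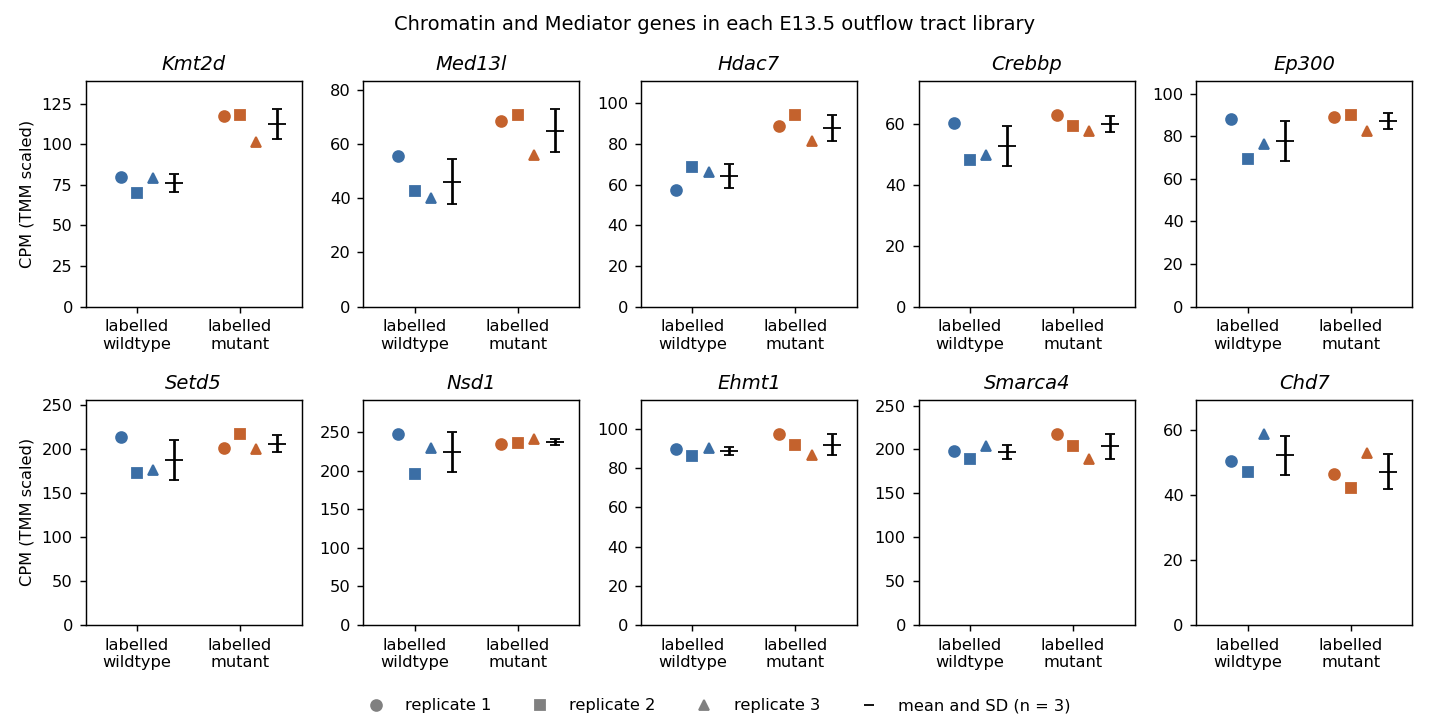
Level of each of the 10 genes in each library, as TMM-scaled CPM (y axis, from 0), for the 3 libraries labelled wildtype (blue) and the 3 labelled mutant (orange), with the mean and SD of each label in black. The groups do not overlap for *Kmt2d*, *Med13l* and *Hdac7*, and overlap for the other 7 genes.

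Among the methyltransferase genes, *Kmt2d* stood apart. It encodes a methyltransferase of lysine 4 of histone H3 that acts at enhancers. It had 79.7, 69.8 and 79.5 CPM in wildtype replicates 1 to 3 and 118, 118 and 102 CPM in mutant replicates 1 to 3, and the highest wildtype library lay well below the lowest mutant one. The log2 fold change of 0.56 (standard error 0.103, 95% interval 0.33 to 0.79) had an unadjusted p of 0.000233 and a Benjamini-Hochberg adjusted p of 0.128 over all genes in edgeR's quasi-likelihood F test, and so was not called. In DESeq2's Wald test, the tool of the study's methods, its adjusted p was 0.000697.

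The other methyltransferase genes had overlapping groups. *Ehmt1*, whose product methylates lysine 9 of histone H3, had 89.8, 86.4 and 90.3 CPM under the wildtype label and 97.5, 91.7 and 86.8 CPM under the mutant label, so mutant replicate 3 lay inside the wildtype range and the other two above it. *Nsd1*, whose product methylates lysine 36 of histone H3, had 248, 196 and 229 CPM and then 235, 236 and 242 CPM, a tight mutant group inside a wide wildtype one. *Setd5*, a SET-domain gene linked to intellectual disability and heart defects, had 214, 172 and 176 CPM and then 200, 217 and 200 CPM, with wildtype replicate 1 among the mutant values. The log2 fold changes were 0.05 (95% interval −0.15 to 0.25) for *Ehmt1*, 0.08 (−0.16 to 0.32) for *Nsd1* and 0.14 (−0.11 to 0.38) for *Setd5*. That of *Setd5* changed when single libraries were left out and when GC content and length were corrected together. It was 0.24 without wildtype replicate 1 (adjusted p = 0.0862, edgeR), 0.08 without wildtype replicate 2 and 0.05 after a correction for GC content and length.

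*Med13l* of the Mediator kinase module had 55.5, 42.8 and 39.9 CPM under the wildtype label and 68.4, 70.5 and 55.8 CPM under the mutant label. The groups did not overlap, but wildtype replicate 1 and mutant replicate 3 nearly met, at a gap smaller than their counting error. The log2 fold change was 0.49 (standard error 0.139, 95% interval 0.19 to 0.80), with an adjusted p of 0.194 in edgeR's quasi-likelihood F test and 0.0440 in DESeq2's Wald test, each with Benjamini-Hochberg adjustment. Without wildtype replicate 1 it was 0.65, past the threshold of edgeR's test (adjusted p = 0.0191).

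*Hdac7*, a deacetylase known for its part in keeping embryonic vessels intact and for repressing Mef2 factors, had 57.4, 68.4 and 66.4 CPM in the wildtype libraries and 88.6, 94.0 and 81.3 CPM in the mutant libraries. All 3 mutant values lay above the wildtype range. The log2 fold change was 0.46 (standard error 0.104, 95% interval 0.23 to 0.69), with an adjusted p of 0.181 in edgeR's quasi-likelihood F test and 0.0118 in DESeq2's Wald test, each with Benjamini-Hochberg adjustment. The summed level of 13 endothelial markers ran from 1136 to 1469 CPM under the wildtype label and from 1246 to 1369 CPM under the mutant label, and so overlapped.

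The nucleosome remodelers differed by less than the spread between libraries. *Smarca4*, the ATPase of BAF complexes, had 198, 189 and 204 CPM and, under the mutant label, 218, 204 and 189 CPM, with the groups interleaved (log2 fold change 0.05, 95% interval −0.17 to 0.26). *Chd7*, which is needed in neural crest cells, was the only one of the 10 with a log2 fold change below 0. It had 50.5, 47.2 and 58.8 CPM under the wildtype label and 46.5, 42.0 and 53.0 CPM under the mutant label, overlapping (−0.14, 95% interval −0.40 to 0.12, adjusted p = 0.580 in edgeR's quasi-likelihood F test).

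The acetyltransferase pair did not pass the test. *Ep300* had 88.1, 69.2 and 76.6 CPM under the wildtype label and 89.0, 89.9 and 82.8 CPM under the mutant label. *Crebbp* had 60.4, 48.2 and 49.9 CPM and then 62.8, 59.3 and 57.6 CPM. For both genes 2 wildtype libraries lay below all mutant ones and wildtype replicate 1 lay among them. The log2 fold changes were 0.16 (95% interval −0.08 to 0.40) for *Ep300* and 0.18 (95% interval −0.06 to 0.42) for *Crebbp*. After the GC and length correction they were 0.04 and 0.05. Without wildtype replicate 1 they were 0.26 and 0.29, with adjusted p-values of 0.0904 and 0.0564 in edgeR's test, and without wildtype replicate 2 they were 0.08 and 0.12.

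Counted together, 0 of the 10 genes were called by edgeR at an adjusted p of at most 0.05, where 0.0213% of all genes tested were. An unadjusted p under 0.05 was found for 3 of the 10 (*Kmt2d*, *Hdac7* and *Med13l*) and for 16.1% of all genes. Of the 11286 genes averaging 10 CPM or more, the range in which all 10 lie, 1096 were higher and 1678 lower at that p. DESeq2's Wald test called the same 3 of the 10, against 4.05% of the 18327 genes to which it gave an adjusted p. Its share was 4.98% of those averaging 10 CPM or more. Groups without overlap and higher under the mutant label were found for 3 of the 10, against 10.7% of all genes and 9.95% of genes averaging 10 CPM or more. In a fit without wildtype replicate 1, edgeR called 3 of the 10, with adjusted p-values from 0.0189 (*Kmt2d*) to 0.0310 (*Hdac7*), against 9.45% of all genes. Of the 11286 genes averaging 10 CPM or more, it called 814 as higher and 1315 as lower. The exact permutation test gave its smallest possible two-sided p of 0.1 for *Kmt2d*, *Med13l* and *Hdac7*. It cannot go lower with 3 libraries against 3. The median log2 fold change of the 10 was 0.15, against 0.01 for all genes tested and −0.05 for those averaging 10 CPM or more. Above 0 were 9 of the 10, against 14406 of all 28157 genes and 4715 of the 11286 averaging 10 CPM or more. After the GC and length correction *Chd7*, *Smarca4*, *Ehmt1* and *Nsd1* were below 0.

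The libraries of one label differed from each other across the 10 genes together. Wildtype replicate 1 was the highest of its label in 6 of the 10 genes and wildtype replicate 2 the lowest in 8. Mutant replicate 3 was the lowest of its label in 8. Among the cell type markers, 3 lists had the same sign in every gene. All 14 myocardial markers had a log2 fold change below 0, with a sum of 33622 to 49855 CPM under the wildtype label and 23072 to 33165 CPM under the mutant label, and all 10 mesenchymal markers had one above 0 (4742 to 9235 CPM and 8544 to 10786 CPM). All 8 blood markers had one below 0 (5391 to 11878 CPM and 6152 to 6307 CPM). EdgeR called none of these 32 markers, of which 11, 6 and 6 of the 3 lists in turn had an unadjusted p under 0.05, and DESeq2's Wald test called 6, 1 and 2. The other lists had both signs. Above and below 0 lay 4 and 9 endothelial, 6 and 2 smooth muscle and 2 and 5 epicardial markers. Neural crest and glia markers had 5 and 1, and macrophage markers 2 and 5. In bulk tissue fewer cells of a type and less RNA per cell cannot be told apart. When the average level of the myocardial markers was added to the model, the log2 fold change was 0.49 for *Kmt2d*, 0.43 for *Hdac7*, 0.21 for *Med13l* and 0.09 for *Chd7*, none past the threshold. Since the summed myocardial level did not overlap between the labels, this fit cannot fully separate that level from the label. The part of the other marker lists in the differences was not tested.

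Across all genes the log2 fold change moved with base composition and length. The GC content of the longest transcript was 60.2% for *Hdac7* and 58.4% for *Kmt2d*, the highest of the 10, then 55.9% for *Smarca4*, between 51.1% and 51.7% for *Med13l*, *Crebbp*, *Chd7*, *Ehmt1* and *Ep300*, 49.7% for *Setd5* and 46.5% for *Nsd1*. Among all genes averaging 10 CPM or more, the median log2 fold change was −0.08 in the 2810 genes under 45% GC, −0.05 from 50 to 55% and 0.11 in the 900 genes at 58% or more. By length of the longest transcript it was −0.19 under 2 kb and 0.08 at 12 kb or more, and the transcripts of the 10 genes measured from 5.18 kb (*Hdac7*) to 19.8 kb (*Kmt2d*). After a correction of each library for GC content and length, the log2 fold change was 0.37 for *Med13l*, 0.31 for *Kmt2d* and 0.24 for *Hdac7*, with unadjusted p-values of 0.00610, 0.00226 and 0.0197 and no adjusted p under the threshold in edgeR's quasi-likelihood F test. The median of the 10 was then 0.05. *Med13l*, with an intermediate GC content, was thus the furthest above 0 after the correction, and *Chd7* (−0.27) the furthest below.

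**Figure D2:**
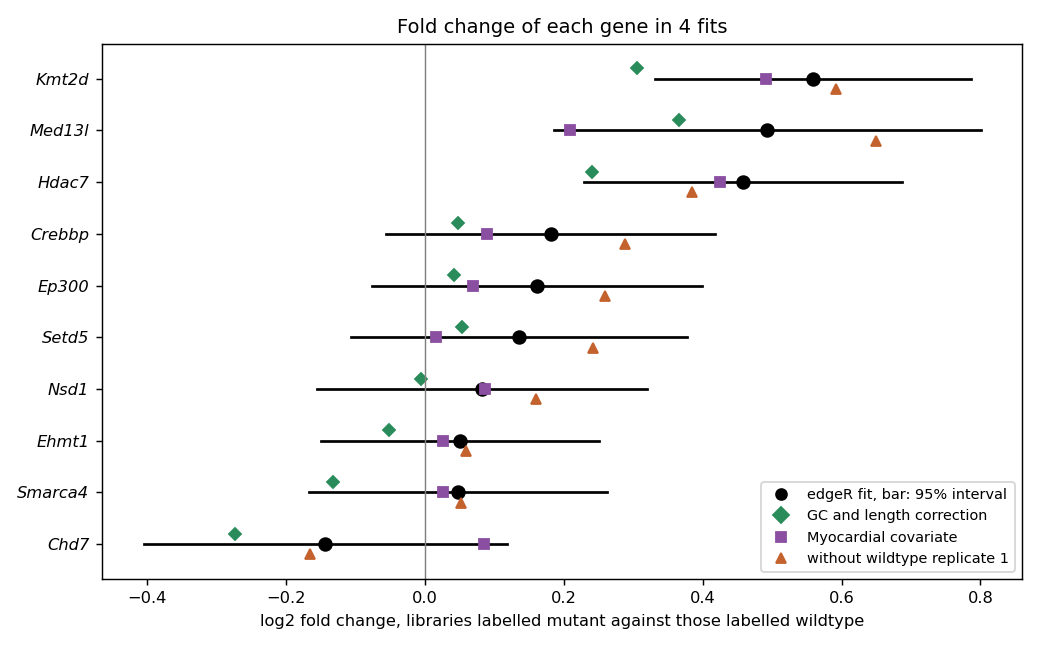
Log2 fold change (x axis, libraries labelled mutant against those labelled wildtype) of each of the 10 genes, as fitted by edgeR (black, with 95% interval), after GC and length correction (green), with the myocardial markers in the model (purple, Myocardial covariate) and without wildtype replicate 1 (orange). *Kmt2d*, *Med13l* and *Hdac7* stay above 0.2 in all 4 fits, and the 95% intervals of the other 7 genes include 0.

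**Figure D3:**
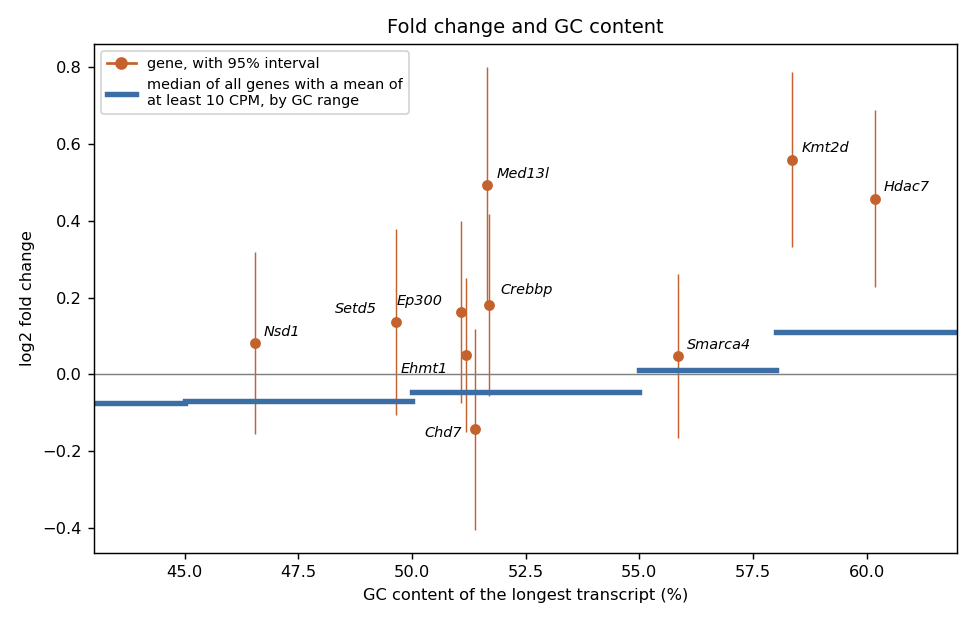
Log2 fold change of each of the 10 genes (y axis, with 95% interval) against the GC content of its longest transcript in percent (x axis). Blue bars give the median of all genes averaging 10 CPM or more in each GC range, from −0.08 below 45% to 0.11 at 58% or more, and *Kmt2d*, *Hdac7* and *Med13l* have intervals wholly above the bar of their range.

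Each gene was next set against a paralog or a related gene in the same library, since such a ratio does not depend on how libraries are scaled. *Kmt2d* over *Kmt2c*, its partner enzyme at enhancers, had log2 ratios of 0.05, 0.17 and 0.43 under the wildtype label and 0.65, 0.70 and 0.51 under the mutant label, a difference of 0.41 without overlap. *Hdac7* over *Hdac5*, another class IIa deacetylase, had log2 ratios of −0.86, −0.66 and −0.73 and then −0.46, −0.40 and −0.30, a difference of 0.36 without overlap. The GC content is 59.8% for *Hdac5* and 60.2% for *Hdac7*, 47.6% for *Kmt2c* and 58.4% for *Kmt2d*, and 41.4% for *Nsd2* and 46.5% for *Nsd1*. The part of GC content in these ratios was not tested. *Nsd1* over *Nsd2* differed by only 0.15, again without overlap, with ratios of 0.65, 0.42 and 0.55 and then 0.72, 0.68 and 0.66, and by 0.09 without wildtype replicate 2.

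The other 6 ratios overlapped. The log2 ratio of *Med13l* over *Med13* was −0.20, −0.02 and −0.12 under the wildtype label and 0.20, 0.29 and −0.04 under the mutant label, so that mutant replicate 3 lay within the wildtype range (difference 0.26). Differences were −0.27 for *Chd7* over *Chd8*, −0.21 for *Ehmt1* over *Ehmt2* and −0.12 for *Smarca4* over *Smarca2*. The last rested on single libraries, being −0.23 without wildtype replicate 1 and −0.01 without wildtype replicate 3, or −0.19 and −0.06 when mutant replicates 1 and 2 were left out in turn, and that of *Chd7* over *Chd8* was −0.16 without wildtype replicate 3. The ratio of *Crebbp* to *Ep300* was the steadiest, with a difference of 0.02 and an SD of 0.05 under each label, and that of *Setd5* to *Kmt2e* differed by −0.01. The 3 ratios without overlap had the smallest two-sided p that the exact permutation test allows (p = 0.1), which became 0.3 after Benjamini-Hochberg adjustment over the 9 pairs.

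**Figure D4:**
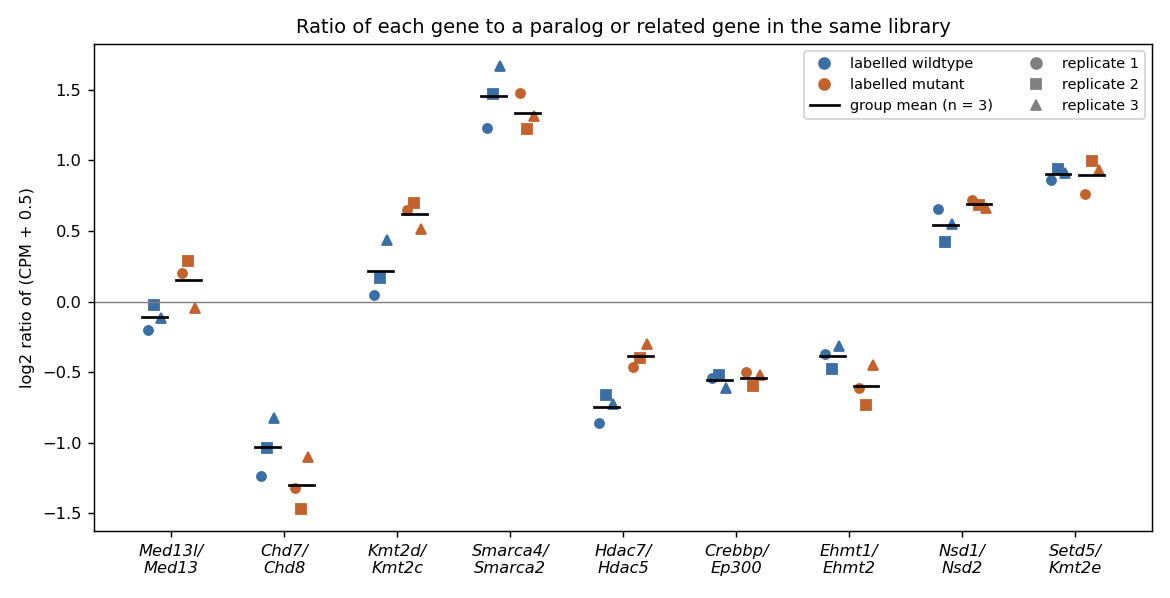
Log2 ratio of the scaled CPM plus 0.5 of each gene to that of its paralog or a related gene (y axis) in each library, for 9 pairs (x axis), with libraries labelled wildtype in blue and labelled mutant in orange and the mean of 3 as a black line. The labels separate for *Kmt2d* over *Kmt2c*, *Hdac7* over *Hdac5* and *Nsd1* over *Nsd2*, and overlap for the other 6 pairs.

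Genes of the same complexes and families were then looked up in the same fit, 129 in all beside the 10. Of these 129 genes, 0 were called by edgeR, 17 had an unadjusted p under 0.05 with a higher level under the mutant label and 8 with a lower level, where 8.23% and 7.83% of all genes did. Of the 11286 genes averaging 10 CPM or more, 1096 were higher and 1678 lower at that p. The median log2 fold change of the 129 was 0.08, and 0.01 after the GC and length correction. All genes tested had a corrected median of 0.01 too. Genes averaging 10 CPM or more had −0.05 before and −0.06 after the correction. DESeq2's Wald test called 1, the BAF subunit gene *Bicra*. The groups did not overlap for 19 genes that were higher and 14 that were lower, against 10.7% and 8.94% of all genes. Of the 11286 genes averaging 10 CPM or more, 1123 were higher and 1713 lower without overlap.

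The genes of the Mediator complex other than *Med13l* were spread around 0. These 31 had a median log2 fold change of 0.00, with 16 above 0 and 15 below, and 2 higher and 5 lower at an unadjusted p under 0.05 (8.23% and 7.83% of all genes). Of the 11286 genes averaging 10 CPM or more, 1096 were higher and 1678 lower at that p. Among the 31, the furthest without overlap were *Med30* (−0.34), *Med9* (−0.33) and *Med6* (−0.25), which encode subunits of the core complex. The kinase module, singled out after its values were seen, had log2 fold changes of 0.36 for *Med12*, 0.21 for *Med13*, 0.18 for *Cdk19*, 0.17 for *Cdk8* and 0.13 for *Ccnc*, all smaller than that of *Med13l*. Scaling by library size only, which shifts the median of all genes to 0.11, moved the median of the 31 to 0.11.

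Around *Kmt2d*, 16 genes of the COMPASS methyltransferase complexes had a median log2 fold change of 0.11, with 4 higher and 1 lower at an unadjusted p under 0.05 (8.23% and 7.83% of all genes). Of the 11286 genes averaging 10 CPM or more, 1096 were higher and 1678 lower at that p. The paralogous enzymes *Kmt2a* and *Kmt2b* each had 0.36, and *Dpy30*, a core subunit that these enzymes share, had −0.42 (46.1 ± 5.34 CPM under the wildtype label and 34.5 ± 4.70 under the mutant label, SD, n = 3). *Kdm6a*, the demethylase that shares a complex with Kmt2d and that was singled out after its values were seen, had 0.03. After the GC and length correction the median of the 16 was 0.00. Of the 15 other SET-domain and related genes, with a median of 0.13, the furthest without overlap were *Dot1l* (0.35), *Setdb1* (0.24) and *Ezh1* (0.24).

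Around *Hdac7*, 13 genes of class IIa deacetylases, their NCoR corepressors and Mef2 factors had a median log2 fold change of 0.05, which was −0.12 after the GC and length correction. *Hdac9*, a class IIa paralog, had a log2 fold change of −0.21, on the other side of 0 from *Hdac7*, and *Gps2*, a subunit of the corepressor complex, had 0.14. Both had groups without overlap, and neither was called.

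Around *Smarca4*, 26 other BAF and PBAF genes had a median log2 fold change of 0.12. *Bicra*, a subunit of the non-canonical BAF complex, had 19.9, 17.3 and 16.3 CPM under the wildtype label and 29.9, 27.8 and 22.4 CPM under the mutant label, without overlap. Its log2 fold change was 0.58, with an adjusted p of 0.181 in edgeR's quasi-likelihood F test and 0.0143 in DESeq2's Wald test. *Brd7* of PBAF (−0.36) and *Dpf3*, a muscle-enriched BAF subunit (−0.34), were lower under the mutant label without overlap, and neither was called. The 8 other CHD remodelers had a median of 0.10 and 0 genes without overlap, and among 9 other lysine acetyltransferases and their partners (median 0.12) *Brpf3* had 0.37, *Brpf1* 0.33 and *Kat2b* −0.15. Of 19 other chromatin genes linked to heart defects, with a median of 0.14, close to the 0.15 of the 10, those named by the same rule were *Kmt2a* (0.36) and *Hdac8* (0.24), both without overlap. After the GC and length correction the medians of these lists were 0.04 for the other heart defect genes, 0.03 for BAF and PBAF, 0.03 for the acetyltransferases, 0.03 for the SET-domain genes and 0.01 for the CHD remodelers.

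**Figure D5:**
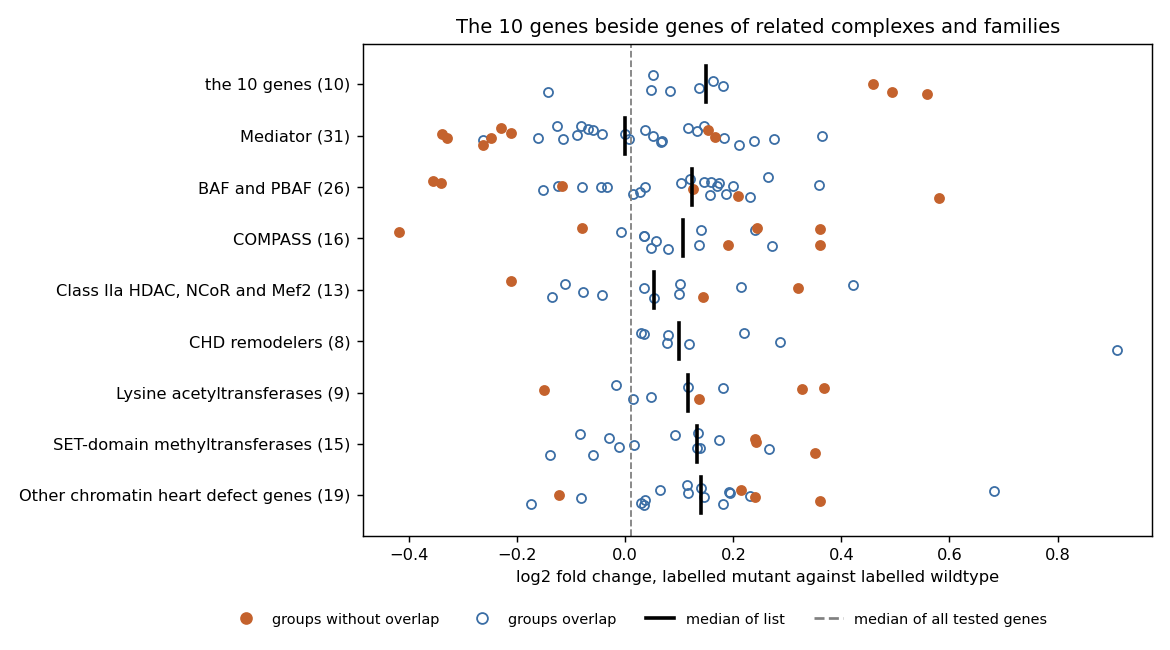
Log2 fold change (x axis, libraries labelled mutant against those labelled wildtype) of the 10 genes and of genes of 8 related lists, with the number of genes in brackets. Filled points have groups without overlap, black bars give the median of each list and the dashed line the median of all tested genes (0.01), and the list medians lie between 0.00 for Mediator and 0.15 for the 10 genes.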

How the data were processed

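Paired-end reads of 6 ribosome-depleted stranded libraries were aligned by the authors to mm10 with TopHat2 2.1.0, and reads on exons were counted per gene with GenomicAlignments. The authors deposited these counts without normalization. The annotation release, the strand setting and the treatment of reads on overlapping genes are not given in the sources used here. The authors' own test was DESeq2 1.26.0.

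A gene was tested when its counts summed to more than 5, which kept 28157 of 28777 genes, in R 4.3.3 with edgeR 4.0.16 (TMM, quasi-likelihood F test, Benjamini-Hochberg adjustment over all tested genes, adjusted p of at most 0.05). Single values were compared with a two-sided exact permutation test of log2(CPM + 0.5), coded directly. The Benjamini-Hochberg adjustment over the pairs used scipy 1.17.1. DESeq2 1.42.0 and limma 3.58.1 (voom) served as alternatives, together with other scalings and filters, a replicate block, a correction for GC content and length, a myocardial covariate and leaving out each library. The code was tested on simulated counts. Positions, lengths and GC content came from GENCODE (28723 identifiers matched) and promoters from RefSeq.

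The 10 genes and all lists were chosen with earlier results of these data known. Named are the 10 genes, *Notch1*, *Nos3*, the paralogs and, of each related list, called genes and up to 3 others with the largest absolute log2 fold change, an average of 10 CPM or more and groups without overlap. Of these, 2 genes are not reported here. p-values measure the spread between pools of 3 OFTs.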

Additional observations from a re-analysis of the deposited data

How the results depend on the processing

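With each of the 6 libraries left out in turn, between 0 and 3 of the 10 genes were called, the 3 being *Kmt2d*, *Med13l* and *Hdac7* without wildtype replicate 1, and between 1 and 2593 of all genes against 6 with every library. DESeq2's Wald test called 3 of the 10 and 742 of all genes. An adjusted p of at most 0.01 left 2 of all genes. *Kmt2d* had log2 fold changes from 0.31 to 0.66 over the settings, *Med13l* from 0.21 to 0.65 and *Hdac7* from 0.24 to 0.57, all above 0. Genes near 0 changed sign. *Chd7* was 0.0852 with the myocardial covariate. After the GC and length correction *Smarca4* was −0.13, *Ehmt1* −0.0516 and *Nsd1* −0.0050. With 1 library left out *Smarca4* ranged from −0.0032 (without mutant replicate 1) to 0.0980 and *Nsd1* from −0.0068 (without wildtype replicate 2) to 0.16. The difference of the log2 ratio of *Crebbp* to *Ep300* then ranged from −0.0083 (wildtype replicate 3 left out) to 0.0479 and was −0.0010 with mutant replicate 1 left out, and that of *Setd5* to *Kmt2e* ranged from −0.0534 to 0.0612 (mutant replicate 1 left out) and was 0.0114 with wildtype replicate 2 left out. The cause was not tested.

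The replicate numbers of the 2 labels mark no stated litter or day. Deviations from the label means correlated by 0.07, 0.16 and 0.56 over 11286 genes for replicates 1, 2 and 3, and wildtype replicate 1 correlated best with mutant replicate 2, so the numbers were not taken as pairs. With a replicate block edgeR called 3 of the 10 (*Kmt2d*, *Med13l* and *Hdac7*) and 1577 of all genes. With the replicate block and the GC and length correction it called 3 of the 10 (*Kmt2d*, *Med13l* and *Chd7* at −0.28) and 2166 of all genes, and *Smarca4* was −0.13, *Ehmt1* −0.0516 and *Nsd1* −0.0026. A replicate block on the numbers of the descriptions, chosen after seeing the data, called 0 of the 10 and 83 of all genes. The counting error of the 10 genes was at most 2.78% in a library. For *Med13l* the gap between wildtype replicate 1 and mutant replicate 3 was smaller than their counting error.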
